A study of Mus musculus with 59 samples.

Results

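Immediate early genes are switched on within minutes of a stimulus, from transcription factors already present in the cell, and their messages are short-lived. Fos, Jun, Junb and Jund encode subunits of AP-1, the leucine zipper dimer that binds many stress and growth genes. Atf3 encodes a related stress factor that can pair with Jun proteins, and Egr1 and Klf6 encode zinc finger factors. Ier2 and Ier3 encode small early response proteins, and Dusp1 encodes the phosphatase that switches off the MAP kinases p38 and JNK and so dampens the pathway that feeds the AP-1 genes. Arsenite is a known activator of these kinases, partial hepatectomy is known to induce Fos and Jun in liver, and Dusp1 is a known glucocorticoid target.

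These 10 genes were followed in mouse liver across 59 Affymetrix arrays, among 18193 genes that had a probe set with a single gene symbol. Each gene was represented by its probe set with the highest mean over the 59 arrays, out of 16 probe sets for the 10 genes. Only the mean level entered the choice of probe set.

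All animals were male C57BL/6 mice, 6 weeks old, that had been kept on their diet for 2 weeks before treatment. They were fed either AIN-76A, a purified diet, or LRD-5001, a cereal-based chow. For 5 weeks, mice on each diet received no added arsenite, sodium arsenite at 10 ppb in the drinking water, 100 ppb in the drinking water, or 10 ppb in the food. These 8 groups held 5 arrays each, except AIN-76A with 100 ppb in water, which held 4. A separate experiment, on AIN-76A only, had 4 groups of 5 arrays that were taken 8 h after an intraperitoneal injection. These mice were given saline, dexamethasone at 1 mg/kg, sodium arsenite at 1 mg/kg, or both agents at those doses. Dexamethasone is a synthetic glucocorticoid. The replicates are labelled as biological replicates and carry letters from A to F, which are used below to name arrays.

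RNA came from whole liver, so fewer cells of a type and less RNA per cell cannot be told apart. The 5 measured hepatocyte markers had mean levels from 12.9 to 13.4 on the log2 scale on all 59 arrays. The median over all probe sets lay between 2.42 and 2.59 on each array, and the levels below are on the same log2 scale. A principal component analysis of each array's departure from its group mean was made, and the lowest array of every group on its leading component was taken as standing apart. These 12 arrays were left out, or fitted as a block, as alternatives. Levels of different genes come from different probes and were not set against each other.

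The 250 bases before the annotated start are shown for Fos, Jun, Junb and Dusp1, the members with the main differences below for which a promoter was at hand (RefSeq, GRCm38.p6). All are written 5′ to 3′ on the strand of the gene. Capitals mark the core of the cAMP response element, TGACG or CGTCA, which extends to TGACGTCA in its full form, and the TATAAA of a TATA box.
Fos, chr12:85473640-85473889, plus strand: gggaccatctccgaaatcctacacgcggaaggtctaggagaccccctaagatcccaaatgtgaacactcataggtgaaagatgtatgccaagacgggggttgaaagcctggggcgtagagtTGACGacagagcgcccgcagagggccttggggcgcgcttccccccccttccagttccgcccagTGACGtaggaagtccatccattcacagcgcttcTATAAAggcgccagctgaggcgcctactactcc
Jun, chr4:95052223-95052472, minus strand: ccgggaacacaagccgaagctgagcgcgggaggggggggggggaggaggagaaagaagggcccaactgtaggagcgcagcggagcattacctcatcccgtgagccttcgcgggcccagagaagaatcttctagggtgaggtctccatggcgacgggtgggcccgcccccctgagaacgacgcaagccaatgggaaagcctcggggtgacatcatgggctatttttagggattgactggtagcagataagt
Junb, chr8:84978749-84978998, minus strand: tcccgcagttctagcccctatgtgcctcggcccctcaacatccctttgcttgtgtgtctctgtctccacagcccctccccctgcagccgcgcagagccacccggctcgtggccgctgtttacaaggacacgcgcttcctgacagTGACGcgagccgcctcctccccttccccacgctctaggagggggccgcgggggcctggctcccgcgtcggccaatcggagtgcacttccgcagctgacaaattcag
Dusp1, chr17:26508473-26508722, minus strand: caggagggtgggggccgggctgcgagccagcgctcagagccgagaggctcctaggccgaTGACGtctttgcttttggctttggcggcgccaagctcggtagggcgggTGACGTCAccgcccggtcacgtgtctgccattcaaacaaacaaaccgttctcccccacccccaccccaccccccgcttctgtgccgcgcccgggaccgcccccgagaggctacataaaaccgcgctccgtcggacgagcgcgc

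Promoters were matched for 8 of the 10 genes, and motifs were searched on both strands of the 250 bases. The core TGACG was found in 4 of the 8 (Atf3, Dusp1, Fos and Junb), against 17.8% of the 32841 promoters in the table. The full TGACGTCA, which contains the core, was found in Dusp1 alone of the 8, against 1.55% of all promoters. In Fos the cores began 129 and 66 bases before the start and the TATAAA, found in 12.4% of all promoters, began 33 bases before it. None of the 8 windows held the AP-1 site TGANTCA (6.75% of all promoters), a CArG box (1.47%), the EGR site GCGNGGGCG (4.70%) or the full glucocorticoid response element (0.00913%). A match or its absence in these windows is a description of the letters alone.

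No difference of any of the 10 genes passed the test between any groups. In limma's moderated test, adjusted over 45037 probe sets with Benjamini-Hochberg's method, 0 of 250 member tests in 25 contrasts had an adjusted p under 0.05. At an unadjusted p under 0.05 there were 37, or 14.8%, against 6.01% of all probe-set tests. The contrasts share arrays and the genes vary together, so these tests are not independent. Nor are the shares matched for level. Of the 10 genes 6 had a mean of at least 4, against 39.6% of all genes. In 15 of the 25 contrasts no probe set of the whole table was called. With other settings, Dusp1, Fos, Jun, Junb, Ier2 or Ier3 was called in some contrasts, as given with each result.

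Most of the 10 genes differed far more between animals of the same group than most genes did, while Klf6 was near the median gene. The standard deviation (SD) within groups, pooled over the 12 groups with 47 degrees of freedom, was 1.88 for Fos, the 6th largest of the 18193 genes. It was 1.67 for Egr1, which ranked 10th, and 1.07 for Jun, which ranked 63rd. The SDs were 0.84 for Dusp1, 0.84 for Junb, 0.75 for Ier2, 0.54 for Ier3, 0.45 for Jund, 0.43 for Atf3 and 0.25 for Klf6. All 10 were above the median of all genes, 0.23, and 6 were in the top 5%. For Fos the SD was 1.38 in the AIN-76A groups of the 5-week experiment, 2.29 in the LRD-5001 groups and 1.83 in the injected groups.

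**Figure D1:**
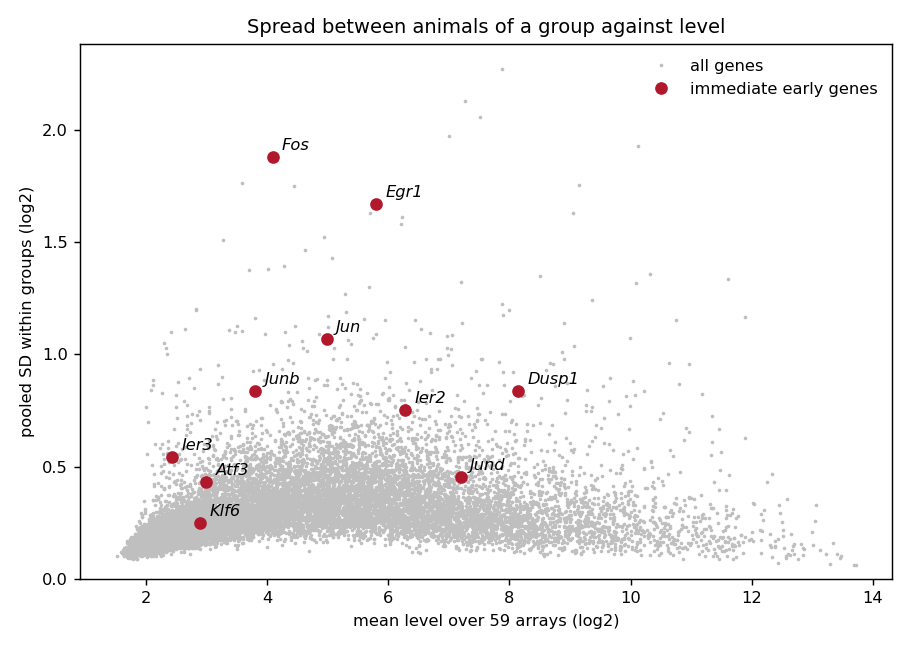
Pooled SD within groups (log2, vertical axis) against the mean level over 59 arrays (log2, horizontal axis), with each gene as a grey point and the 10 immediate early genes in red. Fos at 1.88 and Egr1 at 1.67 lie near the top of all genes, and Klf6 at 0.25 lies near the median of 0.23.

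Atf3, Klf6, Ier3 and Junb had means under 4 over the 59 arrays. Atf3 exceeded 4 on 4 arrays, Ier3 on 1 and Klf6 on 0, while Junb and Fos each did so on 16. Whether such low values are above background is not given in the sources used here. Jun had a second probe set whose deviations from group means followed the first with r = 0.885 and rho = 0.837 over 59 arrays, described without a test. The second probe set of Jund, with a mean of 2.59, had r = -0.10 with the first, which had a mean of 7.19. The 5 probe sets of Klf6 all had means between 1.88 and 2.89.

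**Figure D2:**
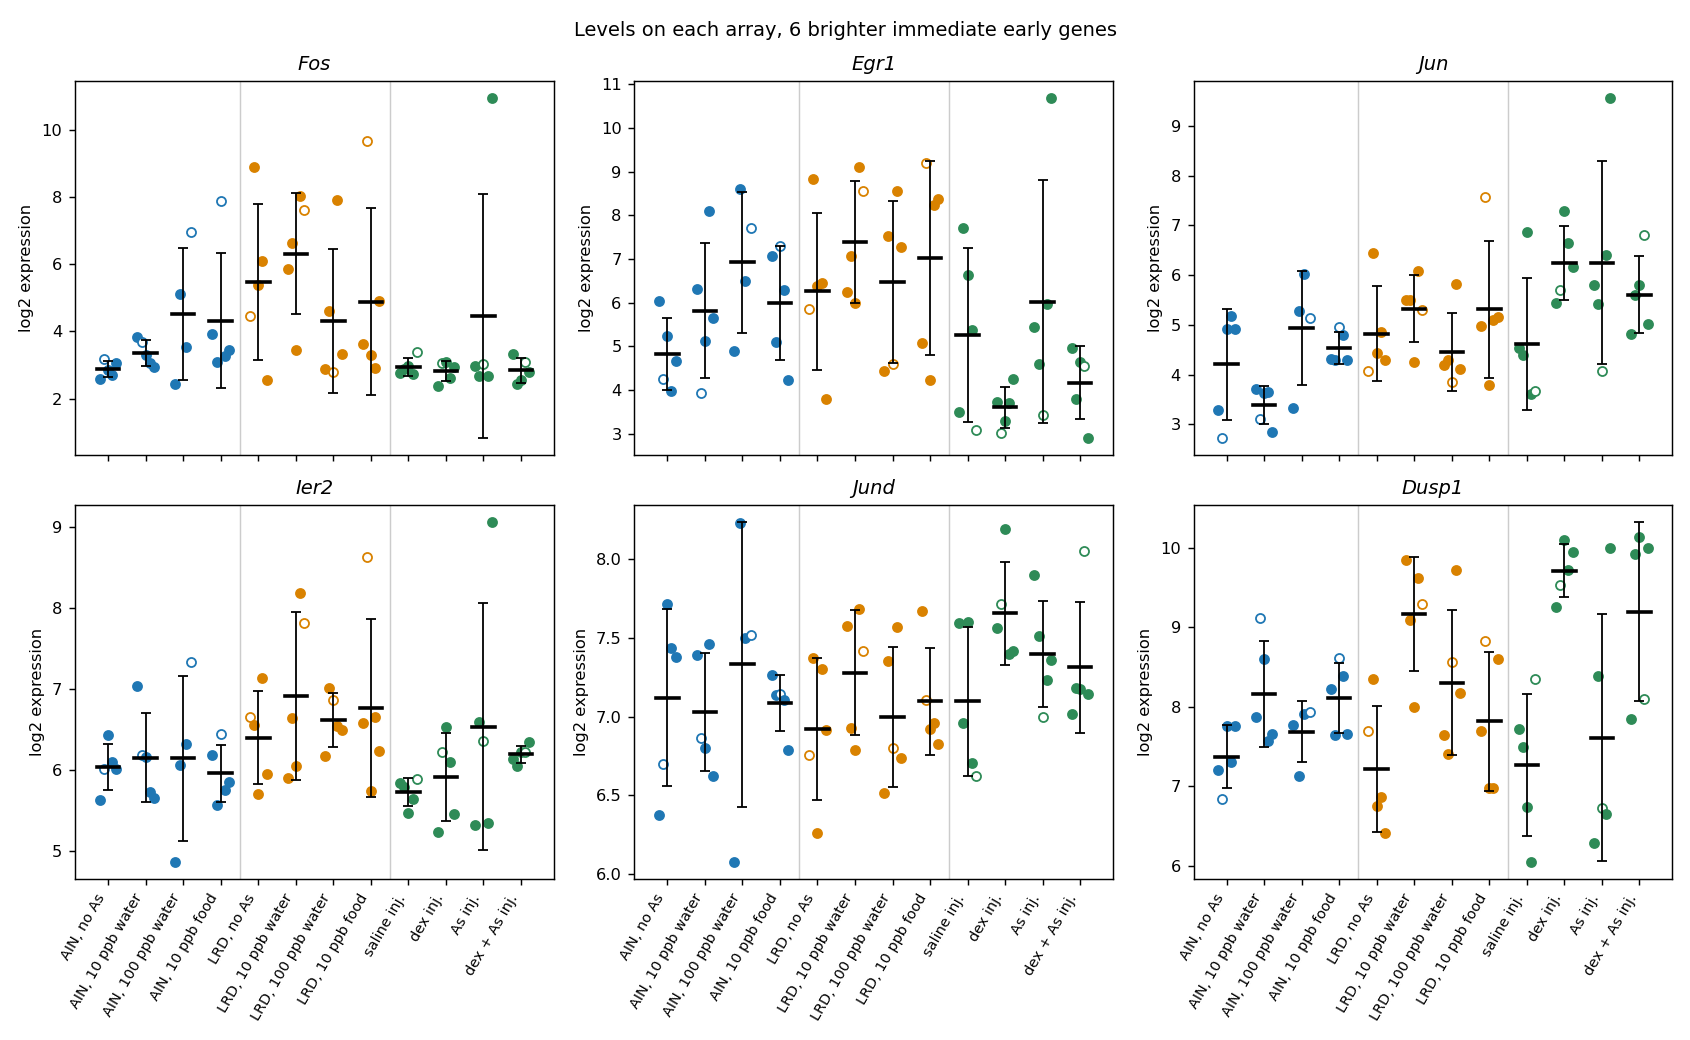
Level (log2) of 6 genes on each array, in the 12 groups along the horizontal axis: 5-week AIN-76A in blue, 5-week LRD-5001 in orange and injected mice in green. Points are arrays, open points are the 12 arrays standing apart, and bars give the mean ± SD of a group. Fos reached 10.94 on 1 array of the arsenite-injected group, while the other 4 lay between 2.67 and 3.04.

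Among the AP-1 subunits, Fos separated the animals most. In the AIN-76A controls its level was 2.60, 2.69, 2.87, 3.06 and 3.18. These values were close to the array medians of 2.42 to 2.59, and whether they are above background is not known here. In the LRD-5001 controls it was 2.57, 4.46, 5.38, 6.09 and 8.89. Thus 4 of the 5 LRD-5001 controls lay above every AIN-76A control, and 1 lay below them all. The difference was 2.60 ± 1.14 (SE), with an unadjusted p of 0.0283 and an adjusted p of 0.578 by limma. In this contrast 0.568% of all probe sets were called.

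With 10 ppb arsenite in water, Fos was 3.46, 5.86, 6.64, 7.61 and 8.02 on LRD-5001. It was 2.93, 3.06, 3.30, 3.67 and 3.85 on AIN-76A. Only the lowest LRD-5001 array fell within the AIN-76A range, and the difference was 2.95 ± 1.14 (SE, adjusted p = 0.476 by limma). At 100 ppb the Fos levels were 2.79, 2.89, 3.34, 4.60 and 7.90 on LRD-5001 and 2.43, 3.54, 5.12 and 6.96 on AIN-76A. These ranges overlapped widely, with a difference of -0.21 ± 1.21 (SE). With 10 ppb in food the levels were 2.90, 3.30, 3.62, 4.92 and 9.66 on LRD-5001 and 3.08, 3.26, 3.45, 3.92 and 7.87 on AIN-76A. Here 1 array in each group was far above its neighbours, and the difference was 0.56 ± 1.14 (SE), where 0.295% of probe sets were called.

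Counted against the highest AIN-76A control, 3.18, Fos was higher on 16 of 20 LRD-5001 arrays, on 10 of 14 arrays of arsenite-exposed AIN-76A mice and on 3 of 20 arrays of injected mice. That control level may not be above background. Of the exposed AIN-76A arrays above it, those at 5.12, 6.96 and 7.87 were well above, and the others lay between 3.26 and 3.92. The LRD-5001 arrays above it ran from 3.30 to 9.66. Averaged over the 4 exposure levels, Fos was 1.48 ± 0.58 (SE) higher on LRD-5001, with an unadjusted p of 0.0149 and an adjusted p of 0.183 by limma. Without the 12 arrays standing apart the difference was 1.72 ± 0.50 (SE) and the adjusted p was 0.0369, where 6.21% of probe sets were called. With those arrays as a block Fos was not called. Over 47 alternative settings the adjusted p by limma ranged from 0.0369 to 0.282. In the averaged diet contrast 4.26% of all probe sets were called.

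In the averaged contrast the other AP-1 subunits showed smaller diet differences than Fos. At 100 ppb in water the differences were larger for Jun (-0.48) and Junb (-1.36) than for Fos (-0.21). With 10 ppb in food they were 0.78 for Jun and 0.80 for Junb, beside 0.56 for Fos. Jun was 0.71 ± 0.27 (SE, adjusted p = 0.175 by limma) higher on LRD-5001 in the averaged contrast, but its second probe set differed by only 0.20. At 10 ppb in water Jun was 4.26, 5.31, 5.49, 5.50 and 6.08 on LRD-5001 and 2.85, 3.12, 3.64, 3.65 and 3.71 on AIN-76A. The groups did not overlap for 1 of the 10 genes, Jun, against 1.76% of all probe sets in that contrast. The difference was 1.93 ± 0.54 (SE), with an adjusted p of 0.149 by limma where 0.344% of probe sets were called. With only these 2 groups in the fit, the adjusted p was 0.0157, where 0.357% of probe sets were called. The second probe set of Jun gave a difference of 1.04. The food and water groups on AIN-76A also did not overlap for Jun, which was 4.29 to 4.96 with arsenite in food. That difference was 1.14 ± 0.54 (SE, adjusted p = 0.854 by limma), and 0.48 with the second probe set. In this contrast 0.864% of probe sets did not overlap, and 0% were called.

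Junb had diet differences of opposite sign at the 2 water doses, and neither passed. At 10 ppb it was 1.12 ± 0.43 (SE, adjusted p = 0.474 by limma) higher on LRD-5001. At 100 ppb it was lower by 1.36 ± 0.46 (SE, adjusted p = 0.122 by limma), where 2.05% of probe sets were called. Without AIN-76A replicate A it was -2.001 and the adjusted p was 0.00275. Over 16 alternative settings this difference ranged from -2.001 to -1.04, and the adjusted p by limma from 0.00275 to 0.410. In the averaged contrast the difference was 0.16 ± 0.22 (SE). Jund ranged from 6.08 to 8.23 over all arrays and differed by -0.07 between diets in the averaged contrast.

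Of the early response proteins, Ier2 had the smallest p in the averaged diet contrast. It was 0.60 ± 0.22 (SE) higher on LRD-5001, with an adjusted p of 0.138 by limma, and its difference was above 0 at each exposure level (0.36, 0.76, 0.47 and 0.81). With the arrays standing apart as a block the adjusted p was 0.0458, and without those arrays it was 0.134. Ier2 exceeded the highest AIN-76A control, 6.43, on 13 of 20 LRD-5001 arrays and on 3 of 14 arrays of exposed AIN-76A mice. Ier3 was lower on LRD-5001 at 100 ppb by 1.15 ± 0.38 (SE, adjusted p = 0.110 by limma). That difference was -0.39 without AIN-76A replicate B, while the adjusted p was 0.0177 without A and 0.0160 without D. Egr1 was 0.89 ± 0.49 (SE, adjusted p = 0.426 by limma) higher on LRD-5001. Over the 10 genes, 6 had a higher and 4 a lower mean on LRD-5001 in the averaged contrast, with a median difference of 0.23 against -0.01 over all probe sets. An unadjusted p under 0.05 was reached by 3 of them, against 14.3% of probe sets.

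Markers of other liver cells also moved with diet. In the averaged contrast, where 4.26% of all probe sets were called, 4 of 11 Kupffer cell markers fell on LRD-5001. So did 2 of 8 measured neutrophil markers and 1 of 4 measured B cell markers, while 1 of 5 hepatocyte markers rose. The mean of the Kupffer list was 6.58 to 7.63 in AIN-76A controls and 6.36 to 6.65 in LRD-5001 controls, and that of the neutrophil list 2.48 to 3.47 and 2.35 to 2.63. Between these controls alone, 0 of the 11 Kupffer cell markers were called. However, 7 had an unadjusted p under 0.05 by limma, against 3249 of all 45037 probe sets. The median difference of the 11 markers was -0.60, against -0.004 over all probe sets. At 100 ppb in water the Kupffer list was 6.63 to 7.02 on AIN-76A and 6.44 to 7.095 on LRD-5001, and the neutrophil list 2.62 to 4.0 and 2.42 to 2.60. The part of these cells in the diet differences was not tested.

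Exposure to arsenite for 5 weeks gave differences in Junb, Egr1, Ier3 and Dusp1 that did not pass the test. With 100 ppb in water on AIN-76A, Junb was 3.17, 5.14, 5.97 and 6.04, against 3.22, 3.33, 3.45, 3.54 and 3.92 in the controls. Replicates B, C and D lay above every control and replicate A below them all. The difference was 1.59 ± 0.46 (SE), with an unadjusted p of 0.00133 and an adjusted p of 0.190 by limma, where 0.00888% of probe sets were called. Without replicate A, the lowest array, the difference was 2.23 ± 0.42 (SE) and the adjusted p was 0.00233. Over 16 alternative settings the difference ranged from 1.27 to 2.23, and the adjusted p by limma from 0.00233 to 0.965.

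Egr1 in that group was 4.88, 6.50, 7.70 and 8.60, against 3.98 to 6.03 in the controls. Replicates B, C and D also lay above every control for Egr1, but replicate A lay within the control range. Replicate A was again the lowest, and the difference was 2.09 ± 1.02 (SE, adjusted p = 0.560 by limma). Ier3 was 2.02, 2.23, 3.32 and 5.56, against 1.99 to 2.50 in the controls, so that replicates B and C alone exceeded them. Its difference of 1.04 ± 0.38 (SE, adjusted p = 0.353 by limma) became 0.28 without replicate B, and 1.53, with an adjusted p of 0.0343, without the arrays standing apart.

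All 10 genes had a higher mean at 100 ppb than in the AIN-76A controls, with a median difference of 0.52 against 0.003 over all probe sets. An unadjusted p under 0.05 was reached by 3, against 8.87% of probe sets. Among probe sets with a mean of at least 4 over the 39 arrays of the 5-week experiment, 1316 of 11540 reached it. Replicate A was the lowest of its group for 6 genes (Fos, Jun, Junb, Jund, Egr1 and Ier2). Without it all 10 differences remained above 0, and 5 had an unadjusted p under 0.05. The neutrophil list had means of 2.62 to 4.0 in this group against 2.48 to 3.47 in the controls. Its part in these differences was not tested. On LRD-5001 the same exposure gave 5 higher and 5 lower members. The interactions of diet with 100 ppb were -1.46 ± 0.63 (SE, adjusted p = 0.789 by limma) for Junb and -1.23 ± 0.52 (SE, adjusted p = 0.775 by limma) for Ier3, with 0% of probe sets called. Without AIN-76A replicate B the Ier3 interaction was -0.47.

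Against 10 ppb on the same diet, 100 ppb gave a Junb difference of 1.64 ± 0.46 (SE, adjusted p = 0.0852 by limma), where 0.713% of probe sets were called. The Junb levels at 10 ppb were 2.91, 3.07, 3.25, 3.67 and 4.31, so the groups overlapped through replicate A. Without replicate A the Junb difference was 2.28 (adjusted p = 0.000908), and with the arrays standing apart as a block the adjusted p was 0.0445. Over 16 alternative settings the Junb difference ranged from 1.23 to 2.28, with adjusted p by limma of up to 0.683. Jun differed by 1.55 ± 0.57 (SE, adjusted p = 0.256 by limma) between these doses, and by 2.09 (adjusted p = 0.0443) without replicate A. Over 18 alternative settings the Jun difference ranged from 1.09 to 2.09, with adjusted p by limma of up to 0.671. Ier3 differed by 1.05 ± 0.38 (SE, adjusted p = 0.232 by limma), which was 0.29 without replicate B, while the adjusted p was 0.0384 without A and 0.0423 without D. With 10 ppb in water on AIN-76A, against the controls, the median difference of the 10 genes was 0.04, and 0 had an unadjusted p under 0.05, against 4.84% of probe sets. No probe set, 0%, was called there. With 10 ppb in food, Atf3 differed by 0.58 ± 0.22 (SE, adjusted p near 1 by limma), and by 0.28 without replicate D, whose level was 4.55 against 2.82 to 3.21 in the others.

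On LRD-5001, Dusp1 had the largest exposure difference relative to its error. With 10 ppb in water it was 7.99, 9.09, 9.30, 9.62 and 9.85, against 6.41, 6.75, 6.87, 7.70 and 8.35 in the controls. Only the lowest exposed array fell within the control range. The difference was 1.95 ± 0.41 (SE), with an unadjusted p of 3.36e-05, and the adjusted p was 0.915 by limma, where 0% of probe sets were called. At 100 ppb Dusp1 was 1.09 ± 0.41 (SE, adjusted p near 1 by limma) above the controls, and with 10 ppb in food the level was 1.35 ± 0.41 (SE) below that with 10 ppb in water. Junb differed by 0.97 ± 0.43 (SE) with 10 ppb in water.

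**Figure D3:**
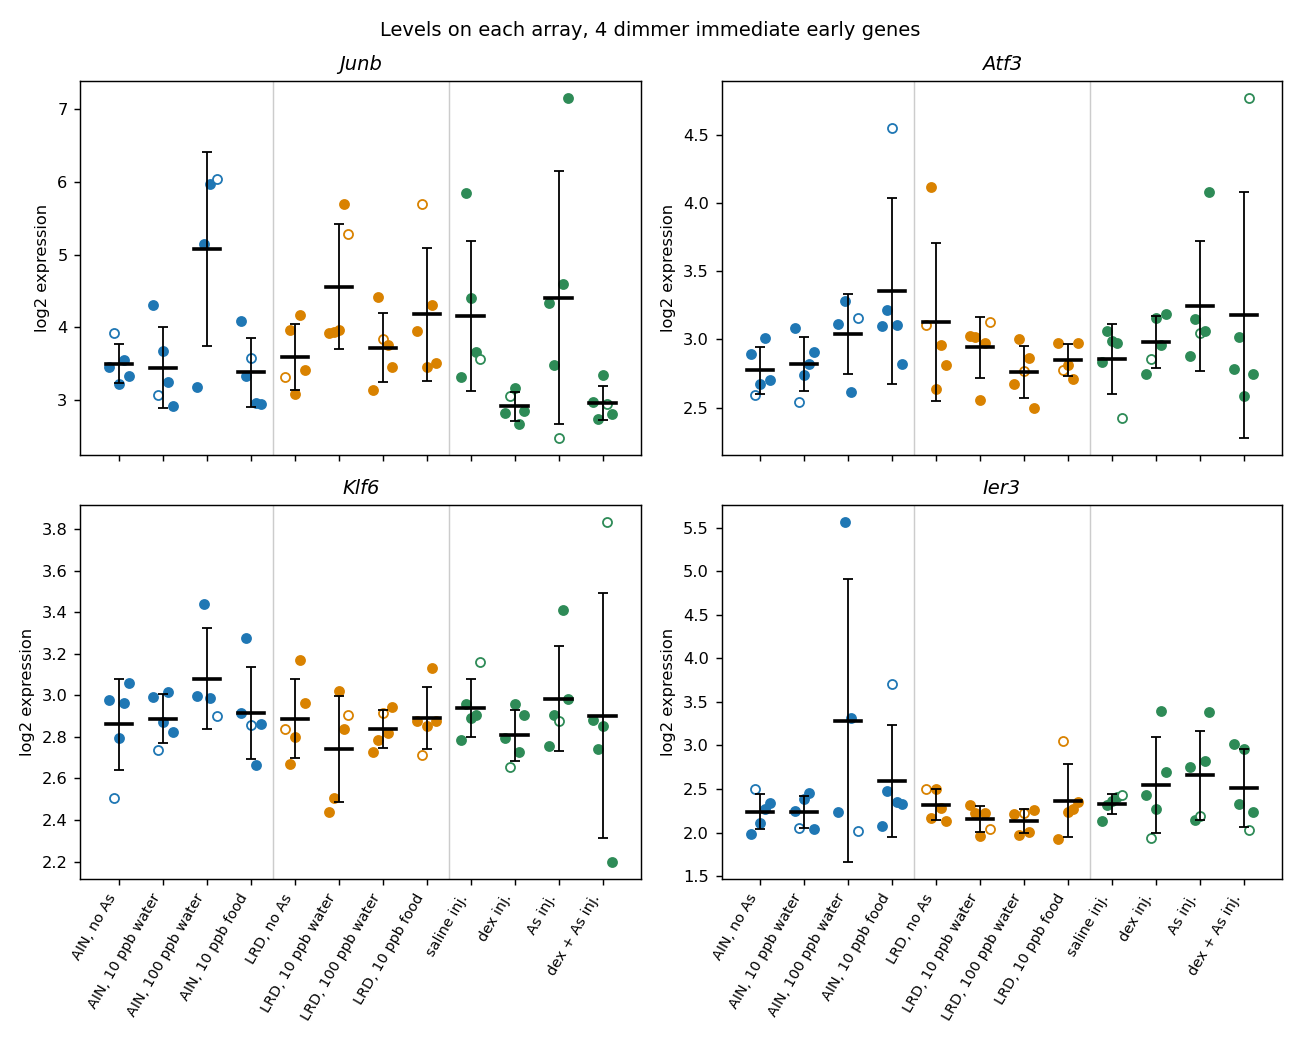
Level (log2) of the 4 genes with means under 4, on each array of the 12 groups, with colours, open points and bars (mean ± SD) as in the plot of the other 6. Junb lies above 5 on 3 of the 4 arrays with AIN-76A and 100 ppb in water, and at 2.66 to 3.33 on all 10 arrays with dexamethasone.

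In the injection experiment, the dexamethasone group had the highest Dusp1 mean of the 12 groups, 9.71 ± 0.33 (SD, n = 5). After saline Dusp1 was 6.05, 6.74, 7.50, 7.72 and 8.36, and after dexamethasone it was 9.26, 9.54, 9.73, 9.95 and 10.09. Every dexamethasone array lay above every saline array. The difference was 2.44 ± 0.62 (SE), with an unadjusted p of 0.000901 and an adjusted p of 0.0511 by limma, just above the threshold, where 1.74% of probe sets were called. It ranged from 2.14 to 2.71 when 1 array was left out, with adjusted p from 0.0521 to 0.156. Under 7 other settings the adjusted p was between 0.00151 and 0.0439, and without the arrays standing apart it was 0.0593. In those 7 settings 1.43% to 7.88% of tested probe sets were called.

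After both agents Dusp1 was 7.84, 8.10, 9.92, 10.00 and 10.13, in which 2 arrays lay within the saline range and 3 at the level of dexamethasone alone. The difference from saline was 1.93 ± 0.62 (SE, adjusted p = 0.200 by limma), where 0.926% of probe sets were called, and the adjusted p was 0.0279 with all 59 arrays in 1 fit. The difference from arsenite alone was 1.58 ± 0.62 (SE, adjusted p = 0.350 by limma), where 0.881% of probe sets were called. Without arsenite replicate F it was 2.18 ± 0.53 (SE, adjusted p = 0.0744). The groups with both agents and with dexamethasone alone differed by -0.51 ± 0.62 (SE), with 0% of probe sets called.

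Junb lay the other way. It was 3.31, 3.56, 3.66, 4.40 and 5.85 after saline and 2.66, 2.81, 2.85, 3.06 and 3.16 after dexamethasone. Junb and Dusp1 were the 2 of the 10 genes whose dexamethasone and saline groups did not overlap, against 3.81% of all probe sets. The Junb difference was -1.25 ± 0.60 (SE, adjusted p = 0.443 by limma), and -0.83 without saline replicate B. After both agents Junb was 2.73 to 3.33, which was -1.46 ± 0.60 (SE, adjusted p = 0.379 by limma) from arsenite alone. Without arsenite replicate F that difference was -0.77.

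Egr1 was 3.03, 3.30, 3.71, 3.73 and 4.26 after dexamethasone and 3.08, 3.49, 5.38, 6.64 and 7.72 after saline. The saline arrays spread over most of the range of the gene while the dexamethasone arrays did not, and the difference was -1.66 ± 1.03 (SE, adjusted p = 0.612 by limma). The mean of Egr1, 3.61, was the lowest of the 12 groups, as was that of Fos, 2.82, and that of Junb, 2.91. Jun was 5.45 to 7.28 after dexamethasone and 3.61 to 6.86 after saline, a difference of 1.63 ± 0.77 (SE, adjusted p = 0.433 by limma). Jund differed by 0.56 ± 0.23 (SE, adjusted p = 0.335 by limma), and its second probe set by 0.16. An unadjusted p under 0.05 was reached by 4 of the 10 genes, against 11.2% of probe sets. Over the 10 genes 6 means were higher and 4 lower after dexamethasone, with a median difference of 0.15 against -0.01 over all probe sets. In the group with both agents, Ier2 at 6.05 to 6.34 lay above every saline array (5.46 to 5.89), the only 1 of the 10 genes to do so, against 2.18% of probe sets that did not overlap.

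None of the 11 Kupffer cell markers or 8 measured neutrophil markers was called in the dexamethasone contrast by limma, and 4 and 2 had an unadjusted p under 0.05. The mean of the Kupffer list was 5.84 to 6.26 after dexamethasone and 5.94 to 8.55 after saline, and that of the neutrophil list 2.30 to 2.50 and 2.86 to 5.94. Their part in the Junb and Egr1 differences was not tested.

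**Figure D4:**
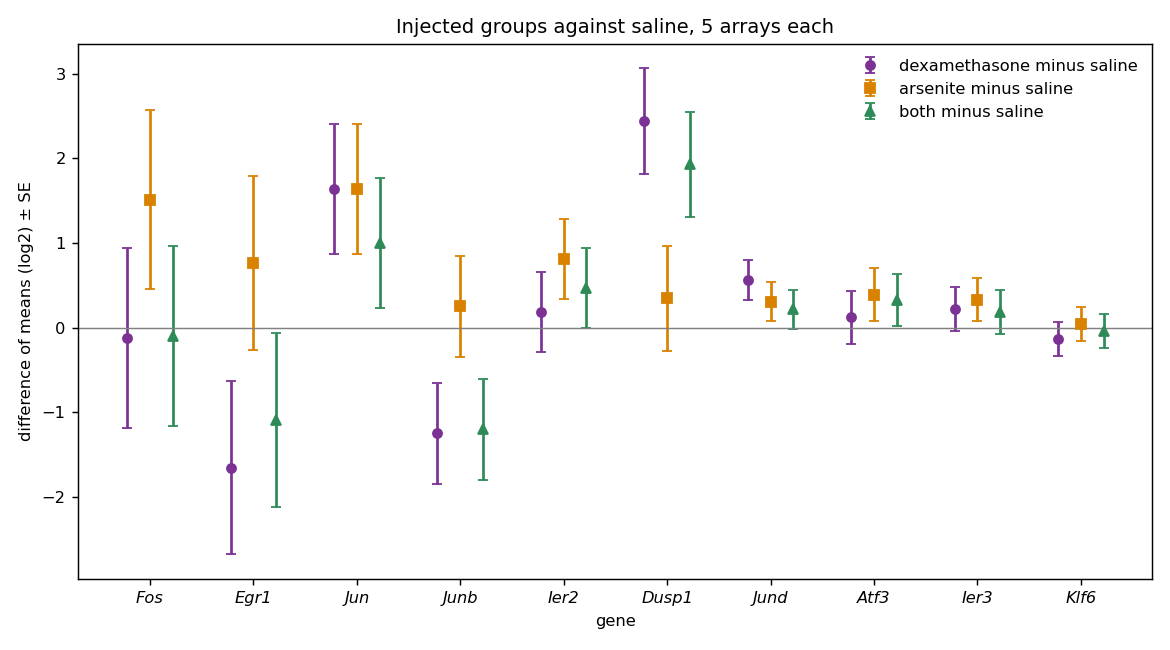
Difference of means from the saline group (log2, vertical axis) for each of the 10 genes (horizontal axis), with bars of ± 1 SE from limma and 5 arrays in each group. Dusp1 is 2.44 above saline after dexamethasone and 1.93 above it after both agents, while Junb is 1.25 and 1.20 below, and none of the differences passed the test.

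The arsenite injection gave means above saline for all 10 genes, and these rested largely on replicate F. Fos was 2.67, 2.69, 2.97 and 3.04 on the other 4 arrays and 10.94 on replicate F, the highest Fos level of the 59 arrays. Egr1 was 3.42, 4.60, 5.45 and 5.97 on the others and 10.68 on replicate F. Jun was 4.08 to 6.41 and 9.56, Junb 2.47 to 4.60 and 7.16, Ier2 5.32 to 6.59 and 9.06, and Dusp1 6.29 to 8.39 and 10.00. Replicate F was the highest of its group for 8 of the 10 genes, all except Jund and Klf6.

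The differences from saline were 1.51 ± 1.06 (SE) for Fos, 1.64 ± 0.77 (SE) for Jun and 0.76 ± 1.03 (SE) for Egr1, and every adjusted p was near 1 by limma. In this contrast 0% of probe sets were called, and 3.14% had an unadjusted p under 0.05. Without replicate F the differences were -0.11 for Fos, 0.81 for Jun and -0.40 for Egr1, and 4 of the 10 changed sign. Of the 10 marker lists, replicate F had the highest mean of its group for B cells (4.21 against a median of 3.54) and endothelium (4.35 against 4.28). For hepatocytes, Kupffer cells and neutrophils it lay within the range of the other arrays. The part of these cells in its levels was not tested.

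Saline injection itself gave no difference with an unadjusted p under 0.05 in any of the 10 genes against undisturbed AIN-76A controls, where 4.42% of probe sets had one. The largest relative to its error was Junb, 0.66 ± 0.51 (SE, adjusted p near 1 by limma), with 0% of probe sets called. Egr1 was 3.08 to 7.72 after saline and 3.98 to 6.03 in the controls. Injection, time and experiment cannot be told apart in this contrast.

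The order of the 12 group means was seldom resolved by the spread between animals. Fos was highest with LRD-5001 and 10 ppb in water, 6.32 ± 1.81 (SD, n = 5), and lowest after dexamethasone, 2.82 ± 0.31 (SD, n = 5). Egr1 had the same highest and lowest groups, at 7.39 ± 1.39 and 3.61 ± 0.47 (SD, n = 5 each), and Ier2 the same highest group, at 6.91. Jun ran from 6.25 after arsenite injection to 3.39 with AIN-76A and 10 ppb in water. Dusp1 ran from 9.71 after dexamethasone to 7.21 in LRD-5001 controls. Junb, Ier3 and Klf6 were highest with AIN-76A and 100 ppb in water, at 5.08, 3.28 and 3.08. Over the 10 genes, 1 of the 110 gaps between neighbouring groups exceeded the larger of the 2 SDs. It was for Fos, between AIN-76A with 10 ppb in water (3.36) and saline injection (2.95).

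The genes varied together between animals of a group. Pearson correlations of the deviations from group means over 59 arrays were above 0 for 42 of the 45 pairs, with a median of 0.31 and a range from -0.31 to 0.74. By permutation within groups (100000 draws, two-sided, adjusted over the 45 pairs), 20 pairs passed for r and 22 for Spearman's rho. All genes of an array share its RNA and its hybridisation. Among the 6 genes with means of at least 4 the median r was 0.51, beside 0.13 over all pairs of the 7206 genes at that level, whose 95th percentile was 0.61.

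**Figure D5:**
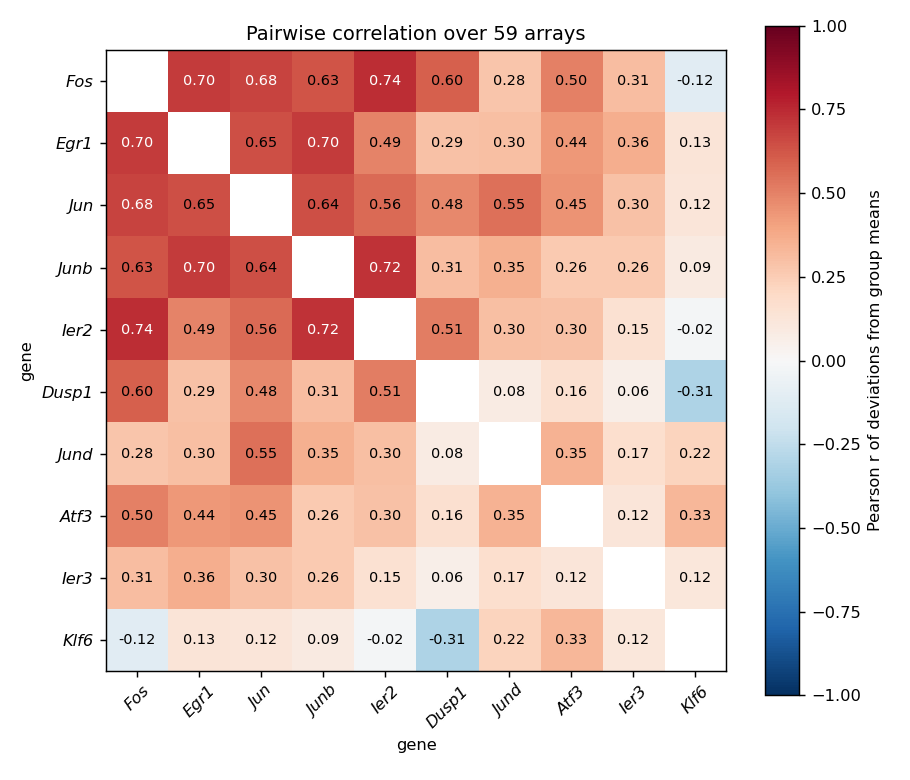
Pearson correlation of deviations from group means over 59 arrays for each pair of the 10 genes (both axes), from blue below 0 to red above 0. Fos, Egr1, Jun, Junb and Ier2 form a block with r from 0.49 to 0.74, or 0.33 to 0.62 without arsenite replicate F. Klf6 is between -0.31 and 0.33 with every other gene.

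Fos and Ier2 had the highest correlation, with r = 0.737 (permutation p = 6e-05, adjusted 0.000386) and rho = 0.623 (permutation p = 4e-05, adjusted 0.0003). It was 0.714 in the AIN-76A groups of the 5-week experiment, 0.643 in the LRD-5001 groups and 0.878 in the injected groups, where it was 0.288 over the 19 arrays other than arsenite replicate F. Leaving out the 2 arrays farthest from the median of Fos gave 0.567. Junb and Ier2 had r = 0.720 (permutation p = 2e-05, adjusted 0.00018) and rho = 0.615 (permutation p = 1e-05, adjusted 0.000225), and r was 0.671 without the 2 farthest arrays. Their r was 0.814, 0.942 and 0.543 in the 3 sets in the same order, and the last became -0.319 without arsenite replicate F. For Fos and Egr1, r was 0.695 (permutation p = 1e-05, adjusted 0.00015) and rho 0.575 (permutation p = 4e-05, adjusted 0.0003), with 0.598 without the 2 farthest arrays. Their values within the sets were 0.460, 0.788 and 0.710, and the last became -0.142 without arsenite replicate F. A p of 1e-05 is the smallest that these permutations can give.

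Fos and Jun, which form the classical AP-1 dimer, had r = 0.679 (permutation p = 2e-05, adjusted 0.00018) and rho = 0.533 (permutation p = 5e-05, adjusted 0.000321). The value was 0.283 in the AIN-76A groups, where Fos varied least, 0.910 in the LRD-5001 groups and 0.683 in the injected groups, and 0.509 without the 2 farthest arrays. In the injected groups it was -0.041 without arsenite replicate F. Jun and Jund had r = 0.552 (permutation p = 6e-05, adjusted 0.000386) and rho = 0.647 (permutation p = 1e-05, adjusted 0.000225), and r = 0.671 without the 2 farthest arrays. No pair with Klf6 passed, and Klf6 with Dusp1 had r = -0.312 (permutation p = 0.0624, adjusted 0.1) and rho = -0.261 (permutation p = 0.0701, adjusted 0.121). The median of the 45 pairs over all 12 groups was 0.32 without arsenite replicate F and 0.36 without the arrays standing apart. Within the injected groups the median was 0.41, but 0.07 without replicate F, with 25 of the 45 pairs above 0.

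Of the 10 cell type lists, the mean of the 4 measured B cell markers had the highest correlation with Fos between animals of a group. Its r was 0.457 (permutation p = 0.00286, adjusted over the 10 lists 0.0286) and its rho 0.251 (permutation p = 0.06, adjusted 0.219) over 59 arrays. It was 0.510, 0.525 and 0.426 in the 3 sets, 0.426 without the 2 arrays farthest from the list's median and 0.354 without arsenite replicate F. For the other 9 lists r lay between -0.15 and 0.20, with adjusted permutation p of 0.381 to 0.970. Within the B cell list, Ighm had a mean of 6.44 and an SD within groups of 1.15. The other measured markers of the list had means of 2.15 to 2.71 and SDs of 0.18 to 0.26. Most of the spread of the list mean thus came from Ighm, and the markers were not correlated with Fos singly. The part of B cells in the levels of Fos was not tested.

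In 6 of the 12 groups, 1 array was the highest of its group for at least 6 of the 10 genes. With LRD-5001 and 10 ppb in food, replicate C was highest for 7, with Fos at 9.66, Ier2 at 8.62 and Jun at 7.57. AIN-76A with 10 ppb in food had such an array in replicate D, also highest for 7 genes. Of the 120 group maxima, 26.7% fell on the 12 arrays standing apart, against 26.9% over all genes.

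The genes outside the 10 whose deviations were most like theirs were taken by the correlation with the mean of the 10 standardised deviations, over 59 arrays and 18183 genes. Btg2, an antiproliferative early response gene, had r = 0.737 and Zfp36, which encodes a protein that speeds decay of messages with AU-rich elements, had r = 0.716. Then came Dnajb1, an HSP40 co-chaperone, with 0.615 and Egr2, a relative of Egr1, with 0.598. Pdlim1, Gpx3, Gm38910 and Slc6a8 had 0.506, 0.493, 0.488 and 0.486. The means of Egr2 and Gm38910, 2.10 and 2.28, may not be above background, and for Egr2 rho was only 0.262. These values describe a ranking and carry no test. Of the 8 genes, 3 were among the first 8 without arsenite replicate F, namely Slc6a8, Btg2 and Zfp36. Dnajb1 fell to 61st and Egr2 to 334th.

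Other genes of the early response and of its signalling were taken from 5 lists. Among 28 other AP-1 and early transcription factors, 1 rose and 1 fell after dexamethasone, where 1.74% of all probe sets were called, with a median difference of -0.11 against -0.01 over all probe sets. Klf10 rose by 2.97 ± 0.64 (SE, adjusted p = 0.0189 by limma) and Irf1 fell by 1.04 ± 0.23 (SE, adjusted p = 0.0250 by limma). Of 33 other early response regulators 1 rose, Ccn2, a matricellular growth factor, by 1.89 ± 0.46 (SE, adjusted p = 0.0387 by limma). Socs3, the feedback inhibitor of cytokine signalling, differed by -2.84 ± 0.88 (SE) and did not pass (adjusted p = 0.131 by limma). None of 23 measured genes of MAP kinase and SRF signalling or of 16 ATF4 and proteotoxic stress genes passed in this contrast, and 2 and 0 had an unadjusted p under 0.05 by limma, against 11.2% of probe sets. Of 14 glucocorticoid targets Fkbp5 rose by 2.98 ± 0.55 (SE, adjusted p = 0.00565 by limma), Pck1 fell by 1.68 ± 0.39 (SE, adjusted p = 0.0295 by limma), and 12 did not pass. Of these 14 genes 9 had an unadjusted p under 0.05, and their median difference was 0.47 against -0.01 over all probe sets.

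When dexamethasone was given with arsenite, Fkbp5, Cdkn1a, Tsc22d3 and Per1 rose against arsenite alone, 4 of the 14 glucocorticoid targets, in a contrast where 0.881% of probe sets were called. Their differences were 3.97, 3.39, 1.53 and 1.06. Of the other early transcription factors 1 of 28 rose, Mafg, a small MAF protein, by 1.03 ± 0.21 (SE, adjusted p = 0.0202 by limma). Of the early response regulators Ccn2 and Per1 rose, 2 of 33. After arsenite injection alone 0 genes of the 5 lists were called by limma, and the lists had 3 of 28, 3 of 33, 0 of 23, 2 of 16 and 4 of 14 with an unadjusted p under 0.05, against 3.14% of probe sets.

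With LRD-5001, in the averaged diet contrast, Ccn1, Trib1 and Phlda1 rose by 0.72, 0.55 and 0.81 and Ier5l fell by 0.19 among the 33 early response regulators, where 4.26% of all probe sets were called. Of the 28 transcription factors 1 rose, Mafg, by 0.45 ± 0.08 (SE, adjusted p = 0.000463 by limma). Map2k6, a kinase that activates p38, rose by 0.62 ± 0.08 (SE, adjusted p = 3.46e-06 by limma), and Mapkapk2, a kinase that p38 activates, fell by 0.40 ± 0.10 (SE, adjusted p = 0.0117 by limma), while 21 of 23 did not pass. Of the 16 ATF4 and proteotoxic stress genes Trib3 rose by 0.86, and Nupr1 and Ddit4 fell by 0.47 and 0.77. Of the glucocorticoid targets 5 of 14 fell, among them Igfbp1 by 1.56 and Lcn2 by 3.34. With 100 ppb in water on AIN-76A, 0 genes of the 5 lists were called by limma, and 4 of 28, 9 of 33, 4 of 23, 7 of 16 and 4 of 14 had an unadjusted p under 0.05, against 8.87% of probe sets.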

How the data were processed

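Total RNA from frozen mouse liver was hybridised to 59 Affymetrix arrays. The authors deposited log2 values made with RMA, per the submitters' processing notes, which name no software version. Array batches are not known here. The table held 45101 probe sets, of which 64 controls were left out. No depth applies to arrays, and the precision is limited by their number. Gene symbols came from the platform annotation (34945 probe sets with 1 symbol, 932 with several, the rest with none). Separate limma fits (version 3.58.1, R 4.3.3) covered the 39 arrays of the 5-week experiment and the 20 injection arrays, and all 59 for saline against undisturbed controls, with Benjamini-Hochberg adjustment over 45037 probe sets. The scripts were tested on simulated data.

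The 10 genes, the lists and the tests were chosen with earlier results of these data known. All 10 genes may be named, with up to 4 genes of a list by smallest p in a contrast and the 8 genes most like the members. Ighm is named as the B cell marker with the largest SD within groups. Of 194 list genes 178 were measured. Cell type lists also covered stellate cells, T and NK cells, bile duct, red cells and pancreas, of which 0 markers were called in the averaged diet and dexamethasone contrasts by limma, with 0 to 4 a list at an unadjusted p under 0.05. The alternatives were other arrays in the fit, quantile normalization, a variance trend, dim probe sets left out, a second probe set, the replicate letter as a block, the arrays standing apart left out or as a block, and each array left out.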

Additional observations from a re-analysis of the deposited data

Results flagged for a closer look

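A sample far from the others of its group, by Dixon's criterion, was found in 10 of 120 groups of a gene, or 8.33%, against 8.80% over all genes. Chance flags about 1 group in 20. Of these values 9 were the highest of their group and 1 the lowest, and 5 lay on the arrays standing apart.

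On AIN-76A with 10 ppb in food, replicate D stood out for Fos at 7.87 (nearest 3.92), Atf3 at 4.55 (nearest 3.21) and Ier3 at 3.71 (nearest 2.48). After arsenite injection, replicate F stood out for Fos at 10.94 (nearest 3.04) and Atf3 at 4.08 (nearest 3.15). After both agents, replicate E stood out for Jund at 8.05 (nearest 7.18) and Atf3 at 4.77 (nearest 3.02). Jun was far above its group on LRD-5001 with 100 ppb in water in replicate E, at 5.83 (nearest 4.30), and after saline in replicate C, at 6.86 (nearest 4.54). Atf3 was low on LRD-5001 with 10 ppb in water in replicate D, at 2.56 (nearest 2.97). The 4 interactions that were tested, 3 of diet with exposure and 1 of dexamethasone with arsenite, gave a smallest adjusted p of 0.775 by limma.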

How the results depend on the processing

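Counts of called genes among the 10 were 0 in the main setting by limma. For dexamethasone against saline the count became 1, Dusp1, with all 59 arrays in 1 fit, with only the groups compared, after quantile normalization, with a variance trend, without dim probe sets, with the replicate block and with the arrays standing apart as a block. In that order 3.04%, 2.53%, 1.85%, 1.57%, 7.88%, 1.43% and 2.60% of tested probe sets were called, against 1.74% in the main setting. With the replicate block Dusp1 differed by 2.52 (adjusted p = 0.0242). Same-letter arrays of different groups had a median correlation of deviations of 0.002, with a range from -0.68 to 0.72. For other letters the median was -0.008 and the range -0.69 to 0.78. What the letters stand for is not known here, and whether they mark pairs or batches was not tested. Both agents against saline gave 1 with all 59 arrays in 1 fit, where 2.03% of probe sets were called, against 0.926% in the main setting. The averaged diet contrast gave 1 (Ier2) with the arrays standing apart as a block and 1 (Fos) without them. In these settings 6.78% and 6.21% of probe sets were called, against 4.26% in the main setting. The 4 diet contrasts within an exposure level gave 1 (Jun) with only the groups compared. At 10 ppb in water 0.357% of probe sets were then called, against 0.344% in the main setting. Without the arrays standing apart these contrasts gave 1 (Ier3), and at 100 ppb 4.84% of probe sets were called, against 2.05%. They gave 0 to 2 when 1 array was left out. There Junb had -2.001 (adjusted p = 0.00275) without AIN-76A 100 ppb replicate A, and Ier3 had -1.50 (adjusted p = 0.0177) without A, -1.57 (adjusted p = 0.0160) without D and -0.39 (adjusted p = 0.548) without B. The 6 exposure contrasts gave 1 (Ier3) without the arrays standing apart, and 0 to 1 when 1 array was left out. Without the arrays standing apart 1.47% of probe sets were called at 100 ppb in water on AIN-76A, against 0.00888% in the main setting. The cause was not tested. Of 775 alternative values of the 37 member differences with an unadjusted p under 0.05, 23 passed the threshold only under the alternative, 752 kept their side and 0 reversed. These differences were picked by p in the same data and none passed in the main setting. None could thus lose a pass, and a reversal was unlikely. Without arsenite replicate F, 4 of all 10 genes changed sign for arsenite against saline, and 5 for both agents against arsenite alone. Signal over background is not known here, which limits Atf3, Ier3, Klf6, Junb and Fos.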
